A study of Mus musculus with 12 samples.

Results

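Bone morphogenetic proteins (BMPs) are secreted signals of the TGF-beta family. The genes described here are 9 parts of that pathway, chosen by symbol from the 46517 genes of the count table: the ligands Bmp2, Bmp4 and Bmp7, the receptors Bmpr1a, Bmpr1b and Bmpr2, and the signal carriers Smad1, Smad5 and Smad4. RNA-seq covered 12 mouse libraries. Normal astrocytes had 4 libraries, astrocytes from tumor (called tumor-derived) had 4, and the tumor cells, called GNPs, had 4. GNPs are granule neuron progenitors, the cells from which this cerebellar cancer, medulloblastoma, grows. Astrocytes are glia that support neurons, and the series sets the tumor-derived astrocytes against both other groups. All cells were taken by laser capture microdissection, per the labels, and a short stretch of the 3′ end of each transcript was amplified.

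The labels give no genotype, treatment, sex or age for any group, and neither the mouse model nor the feature by which cells were recognised for capture is stated in the sources used here. A sample sheet deposited with the counts calls the normal cells adult astrocytes of cerebellum. It spells out a GNP entry as cultured, while the labels give laser capture for all libraries, so culture of the GNPs is not settled. The strain label is C57BL/6 for the 8 astrocyte libraries, and C57BL/7, C57BL/8, C57BL/9 and C57BL/10 for the 4 GNP libraries. Age, culture and strain label, where they differ, cannot be told apart from cell type. No library is tied to an animal, and libraries may share one, in which case the p-values over libraries are too small.

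A BMP ligand binds a pair of type I receptors (such as those encoded by Bmpr1a and Bmpr1b) together with a pair of type II receptors (such as that encoded by Bmpr2). The type II receptor phosphorylates the type I receptor, which phosphorylates Smad1, Smad5 or Smad9, and these enter the nucleus with the shared partner Smad4 and act on target genes such as the Id family. In the developing nervous system BMP signals are known to favour the astrocyte fate, and in the cerebellum they restrain the division of granule neuron progenitors.

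Bmpr1a and Bmpr2, a type I and a type II receptor, were lower in every tumor-derived astrocyte library than in every GNP library, as were Bmp4 and Smad4. The share of all genes that separate in this way was not computed, and GNP libraries 1, 2 and 4 were nearly alike. Bmp4 and Bmpr2 did not pass the test described below (adjusted p = 0.296 and 0.0913, edgeR). The 250 bases before a transcript start are shown for the 2 receptors, which were picked with the presence of the marked word known. The sequences are from RefSeq (GRCm38.p6, written 5′ to 3′ on the strand of the gene). The Bmpr1a window is chr14:34502547-34502796 on the minus strand, and the Bmpr2 window is chr1:59764029-59764278 on the plus strand. Both windows lie inside the annotated span of their gene (34410734 to 34503341 and 59763400 to 59879014). The starts used are therefore not the outermost ones. Capitals mark GGCGCC, a GC-rich word that Smad1 and Smad5 are known to bind, which reads the same on both strands and was the only motif searched.
Bmpr1a: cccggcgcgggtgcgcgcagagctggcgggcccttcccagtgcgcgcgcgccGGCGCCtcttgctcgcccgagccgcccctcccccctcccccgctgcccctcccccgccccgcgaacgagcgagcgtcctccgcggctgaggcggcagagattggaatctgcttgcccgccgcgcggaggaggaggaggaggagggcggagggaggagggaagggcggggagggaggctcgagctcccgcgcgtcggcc
Bmpr2: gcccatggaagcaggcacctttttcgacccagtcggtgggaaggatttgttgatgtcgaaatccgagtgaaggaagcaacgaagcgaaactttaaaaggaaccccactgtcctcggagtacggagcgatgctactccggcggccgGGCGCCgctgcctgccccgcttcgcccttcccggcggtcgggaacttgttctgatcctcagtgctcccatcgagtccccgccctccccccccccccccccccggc
The word began 198 bases before the start in Bmpr1a and 105 bases before it in Bmpr2. The windows were 78.8% and 64.0% G or C. Of the 9 genes, 6 had a window, and the word was found in 3 of them: Bmpr1a, Bmpr2 and Smad5, in the last of these in 1 window of 3. The windows of Bmp4, Bmpr1b and Smad1 held 0 copies. Among all mouse genes with such a window, 10.8% of 27025 held it in at least 1 window. A match is a description of letters and not a binding site.

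Libraries held 8154401 to 12626596 counts. GNP libraries 1, 2 and 4, called the trio below, were nearly alike: over genes with 10 to 49 counts, chi-square per degree of freedom was 1.213 to 1.591 in their 3 pairs and 4.175 to 14.25 in the other 15 pairs within groups. They were therefore counted as 1 sample, so that GNP means have n = 2 (their mean, and library 3). Astrocyte markers (9 genes, all detected in each group) summed to 5830 to 12900 CPM (CPM is counts scaled to library size) in normal astrocytes. The sums were 942 to 2060 CPM in the tumor-derived group and 464 to 695 CPM in the GNP group. Most of the normal sum was Aldoc, at 6960 ± 3300 CPM (n = 4) against 479 ± 198 CPM (n = 4) in tumor-derived astrocytes. Gfap, a marker of reactive astrocytes, went the other way, from 11.2 ± 19.9 to 92.4 ± 40.3 CPM. Aldh1l1, a defining astrocyte marker, was at 241 ± 153 CPM (SD, n = 4), 274 ± 58.4 (n = 4) and 0.843 CPM in the same order. Of 6 granule progenitor markers, Atoh1 and Nhlh1 were at 0 in normal astrocytes, where the list summed to 119 to 226 CPM. All 6 were present in tumor-derived astrocytes at 1010 to 1340 CPM and in GNPs at 1280 to 1420 CPM. Most of both sums was the proliferation gene Mki67, at 872 ± 147 CPM (n = 4) and 945 ± 19.1 CPM (n = 2). Atoh1, the defining marker, was at 6.48 ± 4.54 CPM in tumor-derived astrocytes and at 40.8 ± 22.8 CPM in GNPs, with no overlap (log2 fold change -2.77 ± 0.78, adjusted p = 0.055, edgeR). The other progenitor markers did not follow Atoh1. In tumor-derived astrocytes and GNPs, Barhl1 was at 95.2 and 121 CPM and Zic4 at 103 and 124 CPM. Nhlh1 (43.2 and 26.5 CPM) and Zic1 (97.3 and 65.7 CPM) were higher in tumor-derived astrocytes. None of these, nor Mki67, was called between those groups. The part of progenitor RNA in the tumor-derived astrocyte values was not tested.

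**Figure D1:**
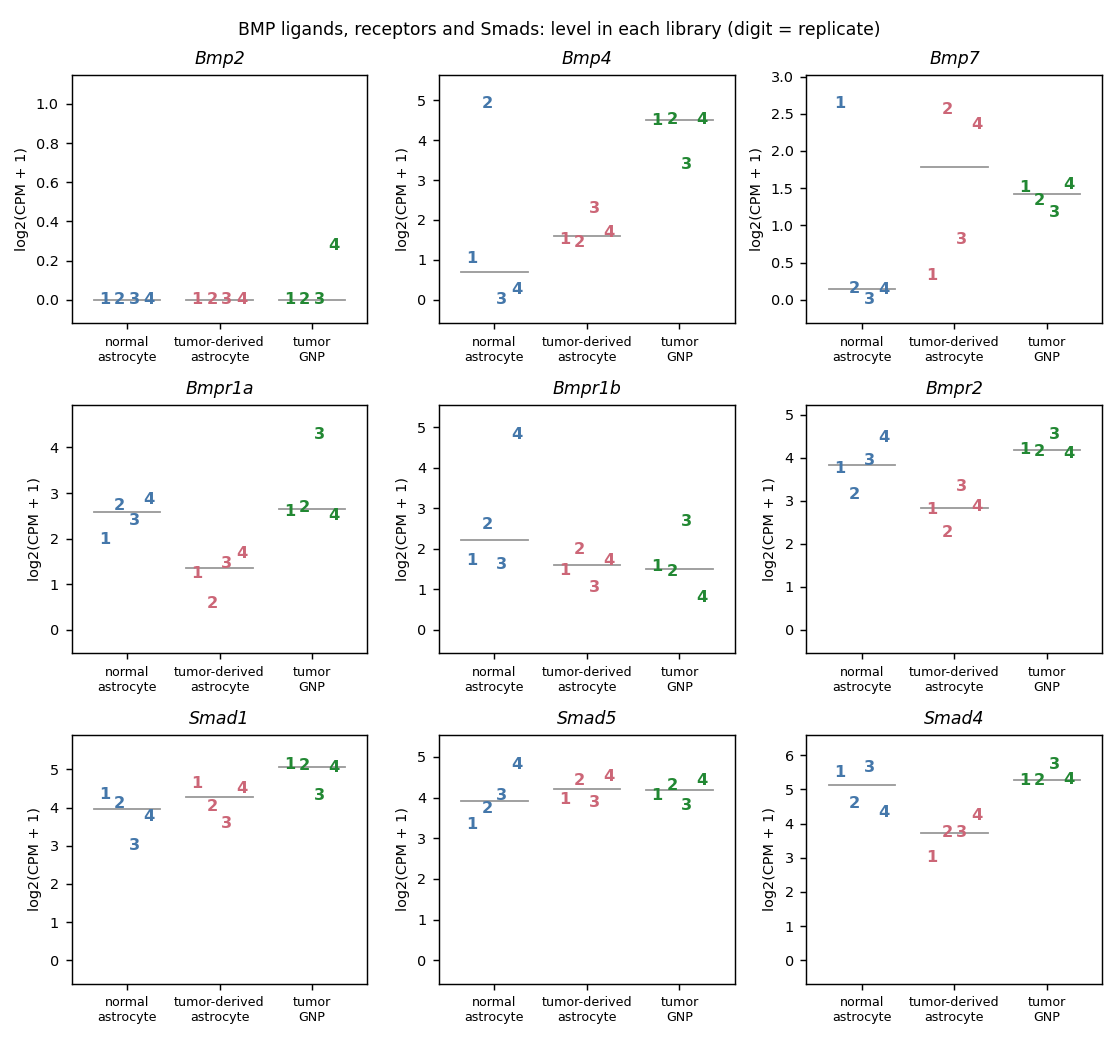
Level of each of the 9 genes in each library, as log2(CPM + 1), with a panel for each gene, its own vertical scale and the 3 groups on the horizontal axis. Each digit is a library, numbered within its group, and the line is the median of the 4 libraries. All 4 tumor-derived libraries lie below all others for Bmpr1a and Smad4, while single normal libraries stand far above the rest of their group for Bmp4, Bmp7 and Bmpr1b. The share of all genes that separate in this way was not computed.

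In tumor-derived against normal astrocytes, 1 of the 8 genes that could be tested changed: Smad4, the shared partner of the receptor-activated Smads, fell 2.68-fold (log2 fold change -1.42 ± 0.45 SE, adjusted p = 0.0306 by edgeR's quasi-likelihood test with Benjamini-Hochberg adjustment over all genes). No gene of the set rose, and 0 were higher at an unadjusted p under 0.05 or by DESeq2. Over all 16374 genes tested, 32.3% were called in this comparison, 17.9% higher and 14.4% lower, so 1 of 8 lower is near the background. The median log2 fold change of the 8 genes was -1.27, beside 0.11 for all genes tested. This median leans on single normal libraries. Bmp4 went from -1.63 to 2.57 without normal replicate 2, and Bmpr1b from -2.16 to -0.65 without normal replicate 4. Against GNPs, tumor-derived astrocytes were lower in 2 of 8 genes, Bmpr1a and Smad4, where 9.88% of all genes were called, 6.62% higher and 3.26% lower. None was higher, also at an unadjusted p under 0.05 (0 genes) or by DESeq2 (0 genes). The median there was -1.25, beside 0.06 for all genes. Between normal astrocytes and GNPs no gene of the set passed, where 24.1% of all genes did (11.6% higher and 12.5% lower in normal astrocytes), and the median was -0.54 beside -0.05. The lowest unadjusted p in that comparison was 0.0896, so 0 genes passed 0.05 before adjustment, and DESeq2 also called 0. The 2 comparisons with tumor-derived astrocytes share those 4 libraries. In libraries of many cells, fewer cells that express a gene and less of its RNA per cell cannot be told apart.

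**Figure D2:**
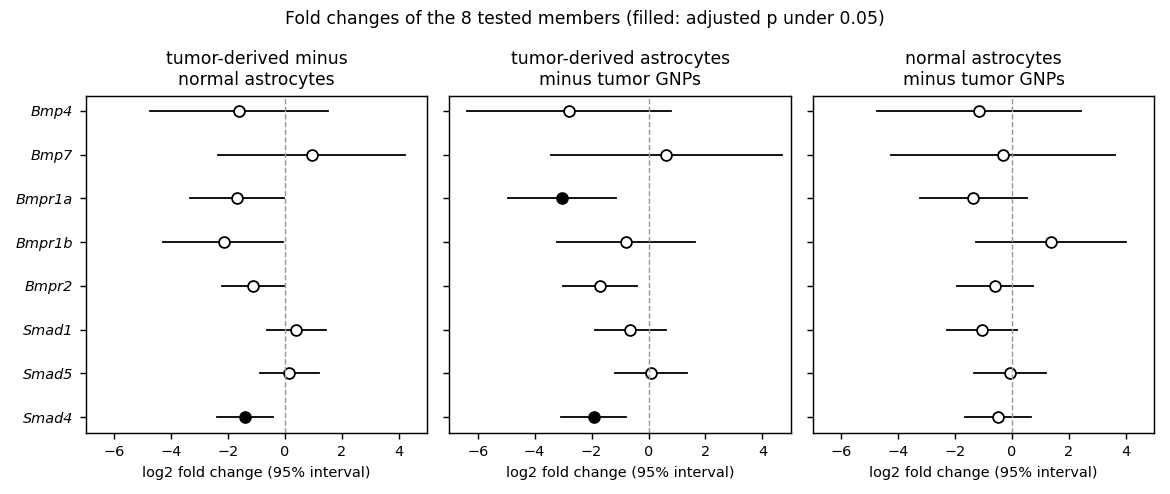
Log2 fold change of the 8 tested genes in each of the 3 comparisons, with 95% intervals from edgeR. Filled points have an adjusted p under 0.05: Smad4 in both comparisons with tumor-derived astrocytes and Bmpr1a against GNPs.

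Among the ligands, RNA of Bmp2 (chromosome 2, 133552159 to 133562885, plus strand, build mm10) was almost undetected. Its only counts were 2 in GNP replicate 4, equal to 0.213 CPM. A count of 0 allows up to 3 counts, which is on average 0.294 CPM in normal astrocytes and 0.339 CPM in tumor-derived astrocytes, for counting error only. Bmp2 was therefore not tested.

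Bmp4 (chromosome 14, 46383520 to 46390669, minus strand) encodes a ligand known to restrain the division of cerebellar granule progenitors. Its levels in GNP replicates 1 to 4 were 21.5, 21.8, 9.55 and 21.9 CPM (mean 15.6 ± 8.61, n = 2). In tumor-derived astrocytes they were 1.87, 1.72, 3.9 and 2.21 CPM (2.43 ± 1.01, n = 4). Every GNP library was above every tumor-derived library, but the difference did not pass (log2 fold change of tumor-derived astrocytes against GNPs -2.79 ± 1.65 SE, adjusted p = 0.296, edgeR). Fitting these 2 groups alone gave -2.75 with an adjusted p of 0.0103.
Normal astrocytes gave 1.04, 29, 0 and 0.195 CPM, so that 3 libraries were below every tumor-derived library and replicate 2 was above all libraries of the series. With that library the log2 fold change of tumor-derived against normal astrocytes was -1.63 ± 1.44 (adjusted p = 0.414), and without it 2.57 (adjusted p = 0.0951). Without it normal astrocytes were also lower than GNPs (-5.33, adjusted p = 0.0133), against -1.16 (adjusted p = 0.649) with it. Normal replicate 2 also had the highest sums of the normal libraries for 3 endothelial markers (184 CPM, the lowest normal sum being 65.3). The same held for 5 meningeal and fibroblast markers (51.6 CPM, the lowest being 6.79). All markers of both lists were detected in the group, but not all were highest in this library. Flt1, Dcn and Lum were (90.4, 40.1 and 9.76 CPM), while Cldn5, Pecam1 and Col1a1 were each higher in another normal library. Col1a2 was at its lowest normal value there, 0.681 CPM, and Pdgfra was at 0. The granule progenitor sum of normal replicate 2 was the highest too, at 226 CPM against 119 to 129 CPM in the other normal libraries. Most of it was Zic1, at 198 CPM. Zic1 was higher in normal astrocytes (127 ± 48.3 CPM, n = 4) than in GNPs (65.7 ± 4.84 CPM, n = 2). Barhl1 and Mki67 were at 7.38 and 0.908 CPM in that library, each the highest normal value. Zic4, at 19.6 CPM, was inside the normal range, and Atoh1 and Nhlh1 were at 0. The part of these cell types in the Bmp4 value was not tested. Of the 50-base stretches in the last 500 bases of Bmp4 transcripts, 7.7% also occurred in transcripts of 511 other genes. The part of reads from such stretches in the Bmp4 counts was not tested.

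Bmp7 (chromosome 2, 172868012 to 172940321, minus strand), a ligand that is also made by meninges and choroid plexus, was low in all groups. It was at 5.2, 0.113, 0 and 0.0976 CPM in normal astrocytes, with nearly all counts in replicate 1. In tumor-derived astrocytes it was at 0.249, 4.91, 0.759 and 4.13 CPM, split between a low and a high pair. GNP libraries were even, at 1.84, 1.53, 1.25 and 1.92 CPM. The groups overlapped, and no comparison passed (tumor-derived against normal 0.93 ± 1.51, adjusted p = 0.669, edgeR). Without normal replicate 1 the same value was 5.00 (adjusted p = 0.0273). That library had the highest normal sums of the 9 astrocyte markers (12900 CPM, the lowest being 5830), 3 oligodendrocyte markers (418 CPM, the lowest being 88.9) and 4 microglial markers (135 CPM, the lowest being 24.5). Most of the astrocyte sum was Aldoc, at 11300 CPM. The other astrocyte markers were each higher in another normal library, and Aldh1l1 (138 CPM) and Gjb6 (52.2 CPM) were at their lowest normal values. Mog (4.92 CPM) and Csf1r (29.6 CPM) were higher in normal replicate 2, at 15.8 and 46.8 CPM. The other oligodendrocyte and microglial markers were highest in normal replicate 1. The part of these cells was not tested. In normal replicate 1 choroid plexus markers summed to 0 and meningeal and fibroblast markers to 25.5 CPM, below the 51.6 CPM of normal replicate 2.

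Among the receptors, Bmpr1a (chromosome 14, 34410734 to 34503341, minus strand) encodes a type I receptor that is broadly expressed in neural tissue. Its levels were 1.37, 0.491, 1.74 and 2.21 CPM in tumor-derived astrocytes (1.45 ± 0.725, n = 4). Normal astrocytes gave 2.93, 5.67, 4.3 and 6.25 CPM (4.79 ± 1.48, n = 4), all above the tumor-derived libraries. GNPs gave 5.08, 5.4, 18.6 and 4.7 CPM (11.8 ± 9.56, n = 2), where replicate 3 stood far above the trio and all were above the tumor-derived libraries.
Bmpr1a was 8.22-fold lower in tumor-derived astrocytes than in GNPs (log2 fold change -3.04 ± 0.87 SE, adjusted p = 0.0473, edgeR). Among all genes tested this fold change lay at percentile 2.55. The call rests on few libraries: without GNP replicate 3 the value was -1.96 (adjusted p = 0.324), and without the trio -3.65 (adjusted p = 0.109). It was also lost without GNP replicate 2 (adjusted p = 0.0504) and on leaving out any single tumor-derived library (0.0838 to 0.13), with RLE (0.0518) or upper quartile factors (0.0515), and with no filter on low counts (0.105).
Against normal astrocytes the log2 fold change was -1.68 ± 0.76 with a 95% interval of -3.33 to -0.03, and its adjusted p of 0.108 missed the threshold, although the libraries did not overlap. DESeq2 gave -1.64 with an adjusted p of 0.0426. Normal astrocytes and GNPs overlapped and were not called apart (-1.36 ± 0.86, adjusted p = 0.275).

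Bmpr1b (chromosome 3, 141837136 to 142169425, minus strand), the other type I receptor, was at 2.27, 5.11, 2.06 and 27.5 CPM in normal astrocytes. Tumor-derived astrocytes gave 1.75, 2.95, 1.08 and 2.3 CPM, and GNPs 1.94, 1.73, 5.4 and 0.747 CPM. Normal replicate 4 was far above the other libraries, which lay between 0.747 and 5.4 CPM, and the groups overlapped. GNP replicate 3 was above the trio. The log2 fold change of tumor-derived against normal astrocytes was -2.16 ± 0.97 (adjusted p = 0.106, edgeR), and without normal replicate 4 it was -0.65 (adjusted p = 0.594). That library also held 229 CPM of 3 choroid plexus markers, with Kl at 0 in the group and a lowest normal sum of 0. The part of choroid plexus RNA in the Bmpr1b value was not tested.

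Bmpr2 (chromosome 1, 59763400 to 59879014, plus strand) encodes the type II receptor that is specific to BMPs. It was at 5.99, 3.81, 9.11 and 6.24 CPM in tumor-derived astrocytes (6.28 ± 2.18, n = 4). Normal astrocytes gave 12.5, 7.83, 14.2 and 21.3 CPM (13.9 ± 5.58, n = 4), and GNPs 17.4, 16.7, 22.4 and 16.2 CPM (19.6 ± 3.99, n = 2). Tumor-derived and GNP libraries did not overlap, while the tumor-derived and normal libraries did, through normal replicate 2 and tumor-derived replicate 3.
The log2 fold change against GNPs was -1.70 ± 0.60 (95% interval -3.01 to -0.40, adjusted p = 0.0913, edgeR), and that against normal astrocytes was -1.11 ± 0.52 (-2.23 to 0.01, adjusted p = 0.119). Both missed the threshold. With all 12 libraries as separate samples they passed, at adjusted p-values of 0.0167 and 0.0489, and the first passed in DESeq2 (0.0238) and with the 2 groups alone (0.0277). A small gene on the same strand within Bmpr2, Gm38125, had 93 counts of its own over the 12 libraries, and reads of the pair could be split between them.

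Among the Smads, Smad1 (chromosome 8, 79338395 to 79399518, minus strand) and Smad5 (chromosome 13, 56703010 to 56742377, plus strand) encode the carriers that BMP type I receptors phosphorylate. Smad1 was at 19.4, 16.3, 7.05 and 12.7 CPM in normal astrocytes (13.9 ± 5.3, n = 4). It was at 23.6, 15.4, 11 and 21.7 CPM in tumor-derived astrocytes (17.9 ± 5.81, n = 4). In GNPs it was at 34.1, 33.4, 19 and 32 CPM (26.1 ± 10, n = 2). The trio was above all astrocyte libraries and GNP replicate 3 was within their range.
Smad1 was not called in any comparison. The log2 fold change of tumor-derived against normal astrocytes was 0.40, with a 95% interval of -0.64 to 1.45 (adjusted p = 0.554, edgeR). Against GNPs normal astrocytes were at -1.05 ± 0.57 (adjusted p = 0.2, edgeR), and with all 12 libraries separate this was -1.10 with an adjusted p of 0.0428.

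Smad5 was the most even of the tested genes. It was at 9.08, 12.3, 15.7 and 27.2 CPM in normal astrocytes. Tumor-derived astrocytes gave 14.6, 20.3, 13.6 and 21.8 CPM, and GNPs gave 15.7, 18.8, 12.9 and 20.4 CPM. All 3 groups overlapped widely. The SD of its log2(CPM + 1) over the 12 libraries was 0.41, against 1.78 for Bmp4. Its log2 fold change of tumor-derived against normal astrocytes was 0.15 with a 95% interval of -0.88 to 1.18. Against GNPs it was 0.07 with an interval of -1.19 to 1.34. The first interval holds a 2-fold rise but not a 2-fold fall, and the second holds both.

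Smad4 (chromosome 18, 73639009 to 73703780, minus strand) was at 6.98, 12.3, 12.3 and 18 CPM in tumor-derived astrocytes (12.4 ± 4.52, n = 4). Normal astrocytes gave 44.2, 23.3, 49.2 and 19.1 CPM (33.9 ± 14.9, n = 4). GNPs gave 37.2, 37.5, 52.3 and 37.9 CPM (44.9 ± 10.5, n = 2). Every tumor-derived library was below every library of the other 2 groups, though normal replicate 4 lay just above tumor-derived replicate 4.
Against GNPs the gene was 3.8-fold lower (log2 fold change -1.93 ± 0.52 SE, adjusted p = 0.0388, edgeR), a fold change at percentile 9.77 of all genes tested. Against normal astrocytes the 2.68-fold fall was at percentile 20.9, well within the spread of all genes. Both kept their sign under all 21 alternatives, with a range of -1.70 to -1.13 against normal astrocytes and -2.30 to -1.70 against GNPs.
The side of the threshold was less stable. The fall against normal astrocytes was lost on leaving out normal replicate 1 (adjusted p = 0.0609) or 3 (0.0818), and on leaving out tumor-derived replicate 1 (0.0691), 2 (0.0741) or 3 (0.072). It did not pass with upper quartile factors either (-1.20, adjusted p = 0.0592). The fall against GNPs was lost on leaving out any single tumor-derived library (0.0592 to 0.104), GNP replicate 3 (0.17) or the trio (0.167).
Other cell type markers differed between the same groups. The 5 Purkinje cell and interneuron markers, all detected in both astrocyte groups, summed to 2840 to 12200 CPM in the normal group and 1040 to 2010 CPM in the tumor-derived group. Pvalb made up most of the latter, at 933 to 1700 CPM, and was 2.26-fold lower than in normal astrocytes, while Pcp2, Calb1, Itpr1 and Gad1 were 43.7-, 33.2-, 40.2- and 21.2-fold lower. In GNPs they summed to 106 to 140 CPM, with Pcp2 at 0. The 2 granule neuron markers summed to 400 to 677 CPM in the normal group and 4.99 to 12.6 CPM in the tumor-derived group. Between these groups Gabra6 and Snap25 were 130- and 52.7-fold lower. GNP libraries had 12.8 to 18.8 CPM, with Gabra6 at 0. The 3 oligodendrocyte markers overlapped, at 88.9 to 418 CPM in the normal and 59.5 to 97 CPM in the tumor-derived group. The 4 microglial markers summed to 24.5 to 135 CPM in the normal group and 169 to 253 CPM in the tumor-derived group. GNP libraries had 1.25 to 2.48 CPM, with Cx3cr1 and Aif1 at 0. Between the astrocyte groups the markers did not move alike: Aif1 was at 17.5 ± 12.6 and 154 ± 51.3 CPM, Csf1r at 25.2 ± 16.9 and 26.4 ± 6.77 CPM, Cx3cr1 at 18.4 ± 19.8 and 5.53 ± 3.08 CPM, and C1qa at 9.81 ± 13 and 37.2 ± 15.1 CPM (n = 4 each). The part of these cells in the Smad4 and Bmpr1a values was not tested.

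**Figure D3:**
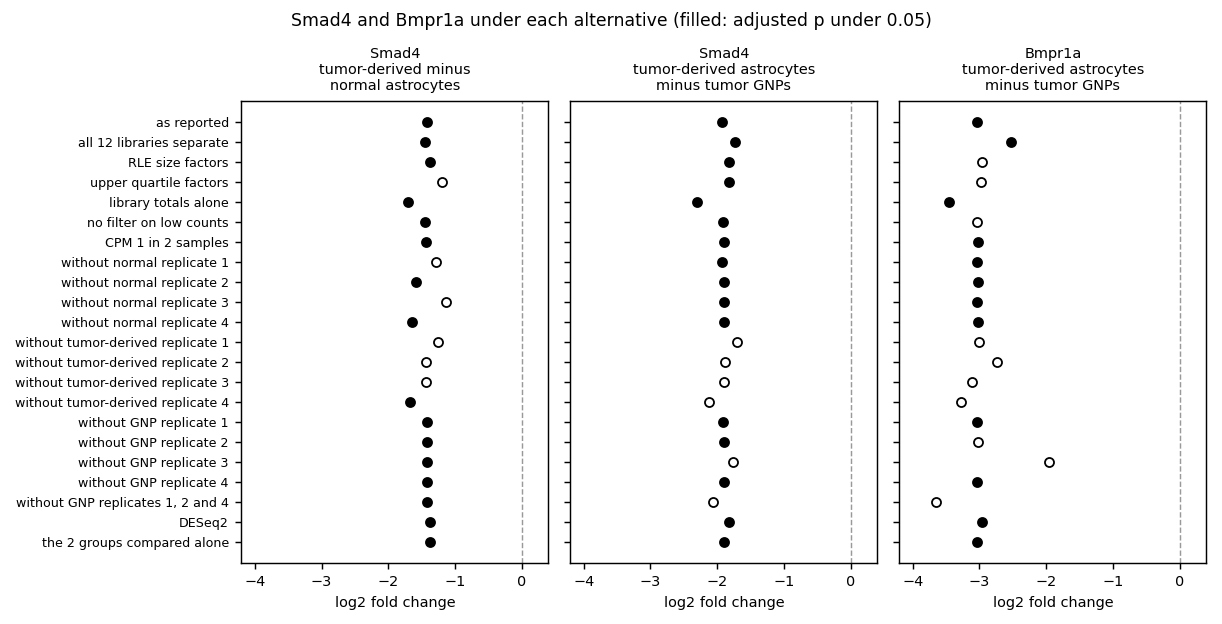
Log2 fold changes of Smad4 and Bmpr1a as reported and under each of 21 alternatives (other scaling factors, filters, tools, or a library left out), with filled points for an adjusted p under 0.05. All values are below 0, while the call of Bmpr1a against GNPs was lost in 10 of the 21.

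For the genes whose log2(CPM + 1) values had an SD of at least 1, the tested genes of most similar profile were named. Likeness is the root mean square difference between centred values over the 12 libraries, of which the GNP trio is nearly a single one. Nearest to Bmp4 were Gtf2a1 (0.39), Rnf217 (0.60) and Fhl2 (0.61). Nearest to Bmpr1b were Dimt1 (0.27), Slc38a11 (0.38) and Fendrr (0.41).

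The other genes of the pathway were taken as 6 lists. Their counts stand beside shares over all genes of 17.9% higher and 14.4% lower in tumor-derived against normal astrocytes, and of 6.62% higher and 3.26% lower against GNPs. Of 12 other BMP ligands, 3 had enough counts to be tested, and 1 was called between the astrocyte groups. Bmp5, a ligand close to Bmp7 in sequence, rose in tumor-derived astrocytes. It was at 5.99, 3.69, 7.7 and 5.47 CPM there and at 0, 0, 0 and 0.585 CPM in normal astrocytes. GNPs gave 7.02, 6.72, 0.208 and 5.98 CPM, high in the trio and near 0 in replicate 3. The log2 fold change against normal astrocytes was 5.22 ± 1.55 (adjusted p = 0.0229, edgeR), a fitted value that depends on the 6 counts of normal replicate 4, and it did not pass without tumor-derived replicate 3 (adjusted p = 0.056). The list's median was -0.63, beside 0.11 over all genes tested.

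Of 9 other receptors and co-receptors, 8 were tested, and against normal astrocytes 1 was higher and 1 lower, with a median of 0.79 beside 0.11. Acvr2b, a type II receptor shared by activins and BMPs, rose 6.54-fold. It was at 213, 465, 403 and 299 CPM in tumor-derived astrocytes (345 ± 111, n = 4), and at 117, 62.5, 15.3 and 22.2 CPM in normal astrocytes (54.2 ± 46.5, n = 4). The groups did not overlap, the log2 fold change was 2.71 ± 0.56 (adjusted p = 0.00393, edgeR), and it passed under all 21 alternatives.
GNPs held 44.7, 48.8, 59.9 and 53.6 CPM of Acvr2b (54.4 ± 7.67, n = 2), and tumor-derived astrocytes were higher by 2.59 ± 0.73 (adjusted p = 0.0455). This was lost in 8 of 21 alternatives: each of the 4 tumor-derived libraries left out (0.0529 to 0.101), GNP replicate 3 left out (0.184), the trio left out (0.269), library totals alone (0.0568) and no filter (0.0649).
Acvr2a, the other activin type II receptor, had 42.2 CPM in normal replicate 1 and 1.36, 3.27 and 3.12 CPM in the other normal libraries, against 0.542 to 2.11 CPM in tumor-derived astrocytes. Its fall of -3.32 ± 1.10 (adjusted p = 0.0366) became -1.09 (adjusted p = 0.346) without that library, and the call was also lost on leaving out any single tumor-derived library (0.0586 to 0.0981).
The median of the receptor list against GNPs was 0.54, beside 0.06. Against GNPs the type I receptor Acvrl1 and its co-receptor Eng, both known in endothelium, were also higher. Acvrl1 had 11 to 28.4 CPM in tumor-derived astrocytes and 0 counts in all GNP libraries, at least 60-fold higher with GNPs set to the floor of 3 counts per library (adjusted p = 0.00099). Eng had 121 counts in tumor-derived astrocytes and 1 in GNPs, a ratio of 129 with a counting interval of 22.7 to 5130 (adjusted p = 0.0251). Eng did not pass without GNP replicate 3 (0.134), the trio (0.158), or tumor-derived replicate 2 (0.0679) or 3 (0.0585). The 3 endothelial markers summed to 135 to 176 CPM in the tumor-derived group and 0.104 to 4.11 CPM in the GNP group, with Cldn5 at 0 in the latter, and their part was not tested.

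Of 19 secreted antagonists and modulators, 11 were tested and 1 was called between the astrocyte groups (median -0.40 beside 0.11). Fstl1, a secreted follistatin-like protein known to bind BMP4, rose 2.83-fold, from 150, 89.6, 25.2 and 54.5 CPM in normal to 192, 235, 240 and 214 CPM in tumor-derived astrocytes. The groups did not overlap (log2 fold change 1.50 ± 0.42, adjusted p = 0.0187, edgeR). It missed the threshold without tumor-derived replicate 3 (adjusted p = 0.0505). GNPs gave 193, 217, 205 and 203 CPM of Fstl1, so its level was not particular to tumor-derived astrocytes (0.02 ± 0.51 against GNPs, adjusted p = 0.985). Normal astrocytes were lower than GNPs (-1.48 ± 0.49, adjusted p = 0.046), a call lost without normal replicate 2 or 4.
Against GNPs 2 of the 11 were higher, with a median of 0.86 beside 0.06. Dand5, a secreted Nodal and BMP antagonist, was at 28.6 to 47.9 CPM in tumor-derived astrocytes and at 0 to 1.66 CPM in GNPs (5.55 ± 1.20, adjusted p = 0.0154, or 0.0703 without the trio). Bmp1 encodes a metalloprotease and not a ligand of the TGF-beta family, and it was 2.64-fold higher (296 ± 86.2 CPM, n = 4, against 107 ± 16.1, n = 2, adjusted p = 0.0255). Bmp1 did not pass without GNP replicate 3 (0.129), the trio (0.212), or tumor-derived replicate 2 (0.0602) or 3 (0.058), nor with library totals alone (1.04, adjusted p = 0.06). The best-known antagonist, Nog, had 35 counts in normal and 4 in tumor-derived astrocytes and could not be tested.

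All 3 other Smads were tested, with a median of 0.10 between the astrocyte groups, and 1 was called. Smad9, the remaining carrier activated by BMP receptors, was lower (log2 fold change -3.64 ± 1.18, adjusted p = 0.0342, edgeR). The fall rests on normal replicate 3, which had 50.4 CPM where the other normal libraries had 3.03, 3.06 and 1.95 CPM and tumor-derived astrocytes 0.374 to 2.46 CPM. Leaving it out gave -1.11 (adjusted p = 0.386). Leaving out tumor-derived replicate 1 (0.0848), 3 (0.0913) or 4 (0.0857) also lost the call. The activin and TGF-beta carriers Smad2 and Smad3 were not called, and against GNPs no gene of this list was called.

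Of 10 intracellular and membrane inhibitors, 6 were tested and 2 were lower in tumor-derived than in normal astrocytes (median -0.67 beside 0.11). Tob2, which encodes an antiproliferative protein of the BTG/TOB family, was at 18.7, 25.4, 22.7 and 6.73 CPM in normal and at 2.49, 2.83, 1.84 and 3.55 CPM in tumor-derived astrocytes. The groups did not overlap (log2 fold change -2.75 ± 0.65, adjusted p = 0.00778, edgeR), and the call held under all 21 alternatives. GNPs gave 5.4, 5.4, 1.97 and 4.8 CPM of Tob2, and tumor-derived astrocytes were not called apart from them (-0.55 ± 0.73, adjusted p = 0.671). Ski, a corepressor that binds Smad4, was at 88, 218, 42 and 111 CPM in normal and at 35.9, 31.3, 29.7 and 53.3 CPM in tumor-derived astrocytes, which overlapped (-1.59 ± 0.46, adjusted p = 0.0203). The call of Ski was lost on leaving out normal replicate 2 (-1.07, adjusted p = 0.0542), tumor-derived replicate 2 (0.0577) or tumor-derived replicate 3 (0.0588). The inhibitors that BMP signalling is known to induce, Smad6, Smad7 and Bambi, had 1, 6 and 1 counts in normal astrocytes and could not be tested.

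Of 8 target genes, 7 were tested. In tumor-derived against normal astrocytes 2 of 7 fell and none rose, where 14.4% of all genes fell, with a median of -1.41 beside 0.11. Id2, an inhibitor of basic helix-loop-helix factors, went from 26.4, 7.72, 23 and 22 CPM to 0.998, 2.46, 3.14 and 11 CPM, with 1 tumor-derived library inside the normal range. Its log2 fold change was -2.13 ± 0.73 (adjusted p = 0.0428, edgeR), lost in 10 of 21 alternatives: normal replicate 1, 3 or 4, tumor-derived replicate 1, 2 or 3, GNP replicate 3 or the trio left out (adjusted p 0.0566 to 0.112), upper quartile factors (0.0651) and the 2 groups alone (0.0564).
The helix-loop-helix gene Atoh8 was lower (log2 fold change -2.52 ± 0.82, adjusted p = 0.0334, edgeR), from 3.9 to 16.6 CPM in normal libraries to 1.06 to 2.82 CPM. It was lost without normal replicate 2 or 3, or on leaving out any single tumor-derived library (0.0546 to 0.0933), and with no filter on low counts (0.0658). Id1, usually read as the first gene to respond to BMP, was at 2.93, 0.227, 5.16 and 5.07 CPM in normal and 4.86, 1.11, 4.23 and 2.49 CPM in tumor-derived astrocytes (-0.03 ± 0.94, adjusted p = 0.982). Id3 was at -1.41 ± 1.02 (adjusted p = 0.312).
Against GNPs 1 target was higher and 1 lower, and the median was 2.44 beside 0.06. That median was the value of Id3 and Id4, of which neither was called (2.44 ± 1.40 and 2.44 ± 1.95, adjusted p = 0.281 and 0.447, edgeR). Id4 had 3 counts in all GNP libraries, and Id3 ranged over 1.58 to 5.36 under the alternatives. Hey1, a repressor shared with Notch signalling, was at 42.8 ± 5 CPM (n = 4) against 131 ± 4.39 CPM (n = 2), with no overlap (-1.69 ± 0.34, adjusted p = 0.0111). It did not pass without GNP replicate 3 (0.0544) or the trio (0.13). Atoh8 had 62 counts in tumor-derived astrocytes and 1 in GNPs, a ratio of 66 with a counting interval of 11.4 to 2650 (adjusted p = 0.0275). Atoh8 did not pass without tumor-derived replicate 2 (0.0619) or 3 (0.0604), GNP replicate 3 (0.138) or the trio (0.165).

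**Figure D4:**
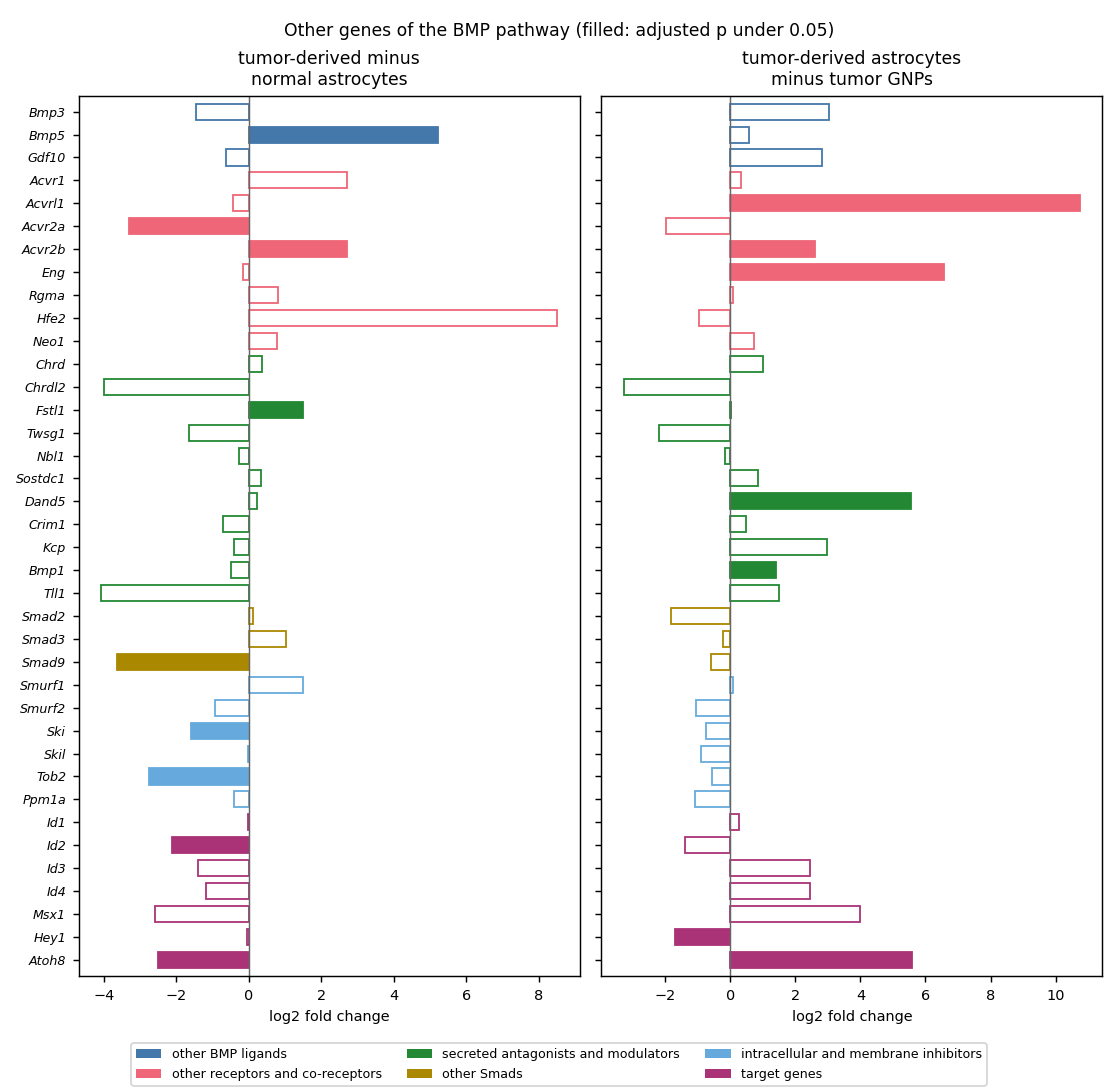
Log2 fold changes of the tested genes of the 6 pathway lists, coloured by list, in tumor-derived against normal astrocytes and against GNPs, with filled bars for an adjusted p under 0.05. Acvr2b, Fstl1 and Bmp5 are the filled bars above 0 on the left. The long bars of Acvrl1, Eng and Atoh8 on the right, and of Hfe2 on the left, are fitted against groups with 0 to 1 counts and depend on the prior count.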

How the data were processed

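Counts per gene were analysed as the authors deposited them, as whole numbers in 1 table of the 12 libraries. Reads were examined with FastQC and aligned with STAR to mm10, per the submitters' processing notes. For the counting program, its annotation and strand the entry is: not given in the sources used here. Overlapping genes can therefore not be told apart. Of 47284 lines, 767 identical repeats were removed, and 27 symbols turned into dates were restored. Coordinates are those of the table.

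Tests used edgeR 4.0.16 (R 4.3.3): TMM factors, filterByExpr (minimum count 10, minimum total 15), a robust quasi-likelihood F-test over 10 samples (GNP replicates 1, 2 and 4 summed) with 7 residual degrees of freedom, and Benjamini-Hochberg adjustment over 16374 genes at 0.05. Standard errors were taken as the log2 fold change over the root of F. The common biological coefficient of variation was 0.783. Levels are TMM-scaled CPM. Counting intervals of count ratios, and floors, cover counting error only, since reads carry no molecular identifiers. Intervals of log2 fold changes were built from the standard errors and so include the spread between libraries. P-values measure only that spread, part of which may be technical. Scripts were tested on simulated data.

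Replicates were numbered in accession order and pair nothing. All 9 members were named, with up to 3 called genes of largest change from each pathway list in each comparison with tumor-derived astrocytes, cell type markers beside a result, and the genes of most similar profile. Genes named outside that rule (Nog, Smad2, Smad3, Smad6, Smad7, Bambi, Id1, Id3, Id4 and Gm38125) were chosen after their values were seen. Members and lists were chosen with earlier results of these data known. The 21 alternatives were other scalings, filters, DESeq2 1.42.0, all 12 libraries separate, the 2 groups alone, and libraries left out.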

Additional observations from a re-analysis of the deposited data

Results flagged for a closer look

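In 3 of the 16 groups of 4 astrocyte libraries examined (8 genes in 2 groups), 1 library lay apart from the rest by more of the group's range than Dixon's 95% critical value. Chance alone marks about 1 in 20 such groups where values are normally distributed. CPM of genes with few counts are skewed, so the rate by chance here is not known. All 3 were normal astrocytes, and each was a different library. Bmp4 was at 29 CPM in normal replicate 2 (gap of 0.964 of the range), Bmp7 at 5.2 CPM in normal replicate 1 (0.978), and Bmpr1b at 27.5 CPM in normal replicate 4 (0.88). The marker sums of these libraries are given with each gene.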

How the results depend on the processing

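Of 500 values of the tested genes under the 21 alternatives, 454 kept their direction and side of the threshold, 22 kept the direction but no longer passed, 9 came to pass and 15 changed sign. No paired analysis was possible because the labels give no replicate numbers. For tumor-derived against normal astrocytes, the number of the 9 genes called lower (1) was 2 with all 12 libraries separate, 2 in DESeq2 and 0 with upper quartile factors. With a library left out it was 0 to 1, and the number called higher was 0 to 1. Against GNPs the number called lower (2) was 1 with RLE factors, 1 with upper quartile factors, 1 with no filter, 4 with the 2 groups alone, and 0 to 2 with a library left out. For normal astrocytes against GNPs the number called lower (0) was 1 with all 12 libraries separate and 0 to 1 with a library left out.

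Bmp4 in tumor-derived against normal astrocytes changed sign to 2.57 without normal replicate 2. Smad5 did so at -0.15 with library totals alone and -0.05 without normal replicate 1. Against GNPs tumor-derived Smad5 was -0.26 with library totals, -0.01 without tumor-derived replicate 4 and -0.23 without GNP replicate 3, and Bmpr1b was 0.28 without GNP replicate 3. For normal astrocytes against GNPs, Smad5 was 0.12 and 0.06 without normal replicates 1 and 2 and 0.30 without the trio. Bmp7 was 0.12, 0.09 and 0.13 without normal replicates 2, 3 and 4 and 0.06 without the trio, and Bmpr1b was -0.12 without normal replicate 4. With a library or the trio left out, tumor-derived against normal values ranged over -2.06 to 2.57 for Bmp4 and -0.05 to 0.50 for Smad5. Against GNPs they ranged over -1.41 to 0.28 for Bmpr1b and -0.23 to 0.45 for Smad5. Normal against GNP values ranged over -4.38 to 0.13 for Bmp7, -0.12 to 2.43 for Bmpr1b and -0.40 to 0.30 for Smad5. None of the values that changed sign passed, and the cause was not tested.

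Over the whole table, tumor-derived against GNP calls (1084 higher, 533 lower) were 2900 and 1852 with all 12 libraries separate, 2454 and 1010 in DESeq2, 2629 and 1866 with the 2 groups alone, 170 to 1477 and 14 to 811 with a library left out, and 1001 lower with library totals. Normal against GNP calls (1903 higher, 2048 lower) were 3423 higher with all 12 separate, 2926 higher in DESeq2, 1185 and 762 with the 2 groups alone, and 1000 to 2055 and 1059 to 2206 with a library left out. The all-gene median of tumor-derived against normal astrocytes (0.11) was 0.31 with upper quartile factors and -0.16 with library totals. In comparisons with a single GNP sample left, its spread is assumed to be that of the other groups. A DESeq2 adjusted p was not given for Bmp4.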
